A study of Mus musculus with 11 samples.

Results

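The genes examined were 9 homeobox genes, all of which were found by symbol among the 37991 Ensembl genes counted. They were Hoxb2, Hoxb3, Hoxb4, Hoxb5 and Hoxb6, which are neighbours in the HoxB cluster, and Meis1, Pbx2, Pbx3 and Pknox1, which encode DNA-binding cofactors of Hox proteins. RNA-Seq counts were available for 11 libraries of hematopoietic stem cells (HSC) from the bone marrow of C57BL/6 mice aged 8 weeks, each made from 1000 cells sorted as the CD150+ CD48- CD135- fraction of lineage-negative, Sca1+, c-Kit+ cells. The 4 NA10hd libraries came from mice in which Vav-Cre removes a stop cassette before a NUP98-HOXA10HD fusion at the ROSA26 locus, the 3 NV libraries from mice in which Vav-Cre activates 1 conditional NrasG12D allele, and the 4 Control libraries from mice labelled wild type that the methods call littermates. Vav-Cre acts in the whole hematopoietic system, so neither allele was confined to HSC, and the NA10hd mice derive from targeting of a single embryonic stem cell line. Elsewhere in the study the same name for controls stands for littermates with the silent fusion allele and no Cre, whereas the labels of these libraries give wild type. The legends call the libraries of a group biological replicates, and whether each came from 1 animal or from pooled animals is not stated in the sources used here, so all p-values measure the spread between these libraries.

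Hox genes encode homeodomain transcription factors and lie in clusters, in which the order of the genes follows the body axis along which they are used in the embryo. In blood they are most active in stem cells and early progenitors and are shut down as cells mature. Hox proteins bind DNA weakly on their own and gain specificity by pairing with PBX proteins, while MEIS1 and PKNOX1, also called PREP1, join PBX and Hox in larger complexes, keep PBX in the nucleus and compete with each other for it. HOXB4 is known for expanding HSC when overexpressed, HOXB5 for marking long-term HSC in mice, and MEIS1 for partnering HOXA9 in leukemia. NUP98-HOXA10HD joins the nucleoporin NUP98 to the homeodomain of HOXA10 and is known to expand HSC.

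The part of the homeodomain that reads DNA is its recognition helix, which has a different code in the Hox genes and in the cofactors, and stretches that encode it in 6 of the members are shown to let both kinds be told apart. In the following lines of NCBIM37 sequence, capitals mark bases that differ from Hoxb4 in Hoxb6 and from Meis1 in the cofactors, and the coordinates are those of the 33 bases on the strand of the gene.
Hoxb4, chr11:96181505-96181537, plus strand: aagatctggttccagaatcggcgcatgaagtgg
Hoxb6, chr11:96162138-96162170, plus strand: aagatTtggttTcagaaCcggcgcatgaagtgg
Meis1, from 18785630 to 18805699 of chromosome 11 and split by an intron, minus strand: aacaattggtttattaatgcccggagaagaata
Pknox1, from 31739800 to 31740156 of chromosome 17 and split by an intron, plus strand: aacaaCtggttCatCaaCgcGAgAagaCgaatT
Pbx3, chr2:34033827-34033859, minus strand: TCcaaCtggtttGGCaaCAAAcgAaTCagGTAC
Pbx2, chr17:34731749-34731781, plus strand: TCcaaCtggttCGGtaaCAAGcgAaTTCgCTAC

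Hoxb6 differed from Hoxb4 at 3 of the 33 bases and encoded the same residues. Pknox1 differed from Meis1 at 9 bases without a change of residue, whereas Pbx3 and Pbx2 differed from Meis1 at 17 and 18 bases and at 5 residues each. Over whole coding-gene transcripts, the longest run of bases that a member shared with another gene was 23 to 61 for 8 members and 228 for Pbx2, whose 5′ end overlaps the 3′ end of Gpsm3 on the same strand. All 5 Hoxb genes are on the plus strand of chromosome 11, Hoxb6 (ENSMUSG00000000690) at 96153790 to 96162883, Hoxb5 (ENSMUSG00000038700) at 96163909 to 96167434, Hoxb4 (ENSMUSG00000038692) at 96177998 to 96182952, Hoxb3 (ENSMUSG00000048763) at 96184640 to 96207999 and Hoxb2 (ENSMUSG00000075588) at 96212946 to 96217003. Meis1 (ENSMUSG00000020160) is elsewhere on chromosome 11, at 18780433 to 18918961 on the minus strand. Pbx2 (ENSMUSG00000034673) and Pknox1 (ENSMUSG00000006705) are on the plus strand of chromosome 17, at 34728211 to 34734345 and at 31701718 to 31744638, and Pbx3 (ENSMUSG00000038718) is on the minus strand of chromosome 2, at 34026977 to 34228660.

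Total counts per library ranged from 5464815 to 12610189 for Control HSC, from 7624638 to 12180230 for NA10hd HSC and from 9981499 to 14283008 for NV HSC. Levels are given as CPM, read counts scaled for the depth of the library, and a count of 0 over a whole group allows up to 3 counts, or 0.0836 CPM for Control, 0.0745 CPM for NA10hd and 0.0820 CPM for NV. This limit covers counting error only. A summed list of 7 HSC markers lay at 2122 to 2621 CPM for Control, at 2353 to 2966 CPM for NA10hd and at 1846 to 2288 CPM for NV libraries, with no marker at 0 in any group. Libraries differed in the sex-specific transcripts Xist and 4 Y-linked genes. Xist was at 0 and the Y-linked genes were not in Control replicates 1 and 4 and NA10hd replicates 1 to 3, the reverse held for NA10hd replicate 4 with 216 Xist reads, and the remaining libraries had reads of both. NA10hd replicate 4 also had the fewest genes with a count, 13859.

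The 9 genes differed widely in level. Compared per length, as CPM per kilobase of exon (RPKM), Meis1 was the highest in every group, at 36.1 ± 2.56 RPKM (SD, n = 4) in Control HSC. Pknox1 followed at 12.9 ± 2.23 RPKM, then Pbx2 at 6.25 ± 2.06 RPKM and Hoxb5 at 4.76 ± 1.45 RPKM, whose Control libraries overlapped those of Pbx2. Hoxb6 at 1.19 ± 0.524 RPKM, Pbx3 at 1.16 ± 0.341 RPKM and Hoxb4 at 0.840 ± 0.330 RPKM overlapped in that order. Hoxb2 and Hoxb3 were lowest, with no library in the range of Hoxb4, at 0.121 and 0.0265 RPKM. In NA10hd HSC, Hoxb5 stood at 8.42 ± 0.793 RPKM, within the range of Pknox1 (8.85 ± 1.82 RPKM) and Pbx2 (8.21 ± 1.82 RPKM). In NV HSC it was at 2.20 ± 0.474 RPKM, below every Pbx2 library (4.14 ± 0.852 RPKM, n = 3). Within the cluster Hoxb5 dominated, giving 59.9% to 71.6% of the summed RPKM of Hoxb2 to Hoxb6 in each of the 11 libraries. Taking the longest transcript as the length in place of all exons raised Meis1 to 77.9 RPKM and Pbx3 to 2.59 RPKM in Control and placed Pbx3 above Hoxb6 there.

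**Figure D1:**
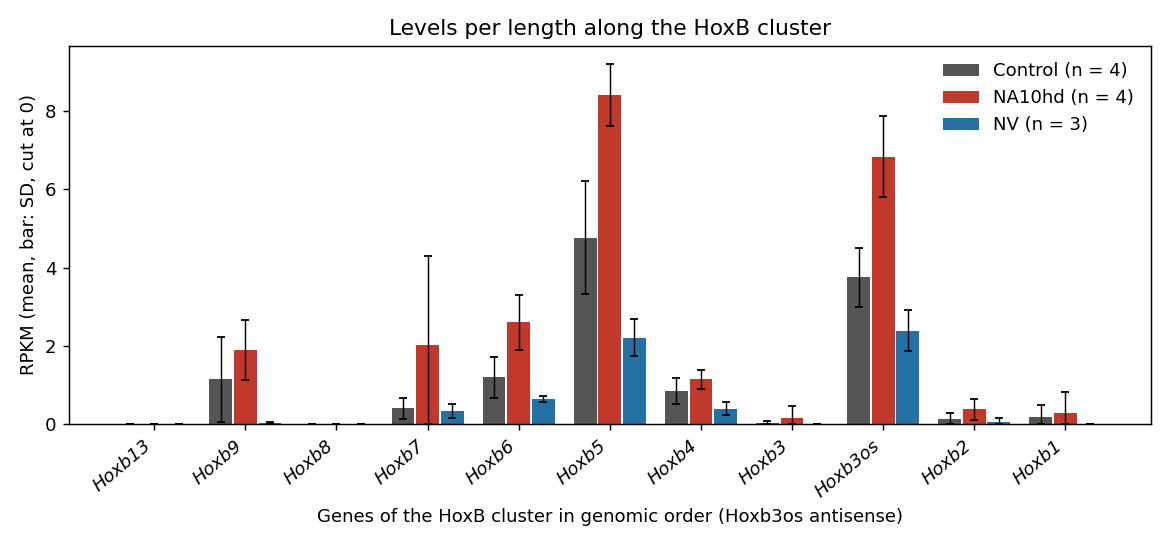
Mean level of each HoxB gene and of the antisense transcript Hoxb3os (y axis, RPKM; bars of 4 Control, 4 NA10hd and 3 NV libraries; error bars SD, stopped at 0) in the order of the genes along chromosome 11 (x axis). Hoxb5 is the highest coding gene in each group, at 4.76 RPKM in Control, 8.42 RPKM in NA10hd and 2.20 RPKM in NV HSC, and Hoxb3os, antisense to Hoxb3 and Hoxb2, lies next to a pair of genes near 0.

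Hoxb5 was the member whose 3 groups of libraries were fully apart. Its level was 15.9, 9.09, 17.7 and 10.9 CPM in Control replicates 1 to 4, 21.5, 22.0, 25.9 and 25.3 CPM in NA10hd replicates 1 to 4, and 7.72, 5.41 and 5.41 CPM in NV replicates 1 to 3, from 56 to 300 reads per library. Every NA10hd library was above every Control library, and every NV library below. The means were 13.4 ± 4.06 CPM in Control (n = 4), 23.7 ± 2.23 CPM in NA10hd (n = 4) and 6.18 ± 1.33 CPM in NV HSC (n = 3). Set directly against each other, NA10hd HSC had more Hoxb5 than NV HSC by 1.93 on the log2 scale (SE 0.36, 95% interval 1.14 to 2.72, edgeR adjusted p = 0.012), and Hoxb5 was the only member called a DEG (differentially expressed gene, with an adjusted p under 0.05 over all genes and a fold above 1.5) in that fit. The differences from Control were 0.83 in NA10hd (SE 0.31, adjusted p = 0.337) and -1.12 in NV (SE 0.34, adjusted p = 0.0828), and neither passed. The direct difference was no longer called without NV replicate 2 (1.84, adjusted p = 0.0872) or without NV replicate 3 (1.84, adjusted p = 0.0886), and over 14 alternatives it ranged from 1.84 to 2.12 with adjusted p from 9.28e-08 to 0.0886. DESeq2 called Hoxb5 lower in NV than in Control (-1.12, adjusted p = 0.0333), where the range over 15 alternatives was 0.0333 to 0.23.

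Markers of the sorted cells moved with Hoxb5. Of the HSC markers, Procr and Hlf were called higher in NA10hd than in NV. Of 5 endothelial markers 4 were tested, Kdr and Emcn were called higher in NA10hd, the summed list ran from 179 to 266 CPM over NA10hd, from 135 to 168 CPM over NV and from 188 to 206 CPM over Control libraries, and Cdh5 was at 0 in NV. The others were not called, Tek standing at 91.7 CPM in NA10hd, 112 CPM in NV and 83.5 CPM in Control and Plvap at 1.76, 0.738 and 0.115 CPM. Megakaryocyte and erythroid markers moved the other way. Pf4, a platelet chemokine, was at 14.9 ± 4.87 CPM in NA10hd and 158 ± 81.0 CPM in NV, Itga2b, the platelet integrin CD41, at 49.2 ± 11.2 and 145 ± 50.6 CPM, Ppbp, another platelet chemokine, at 0.472 ± 0.550 and 10.4 ± 0.938 CPM, and Klf1, an erythroid transcription factor, at 0.885 ± 0.960 and 17.6 ± 6.84 CPM, all called lower in NA10hd. Vwf, the von Willebrand factor of platelets and endothelium, was called higher in NA10hd, at 251 ± 49.1 against 124 ± 27.3 CPM. All 3 NV libraries held both Xist and Y-linked reads and no NA10hd library did, so for this comparison the mix of sexes and the genotype cannot be told apart. The part of these markers in the Hoxb5 difference was not tested, and in bulk libraries fewer cells of a type and less RNA per cell cannot be told apart.

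**Figure D2:**
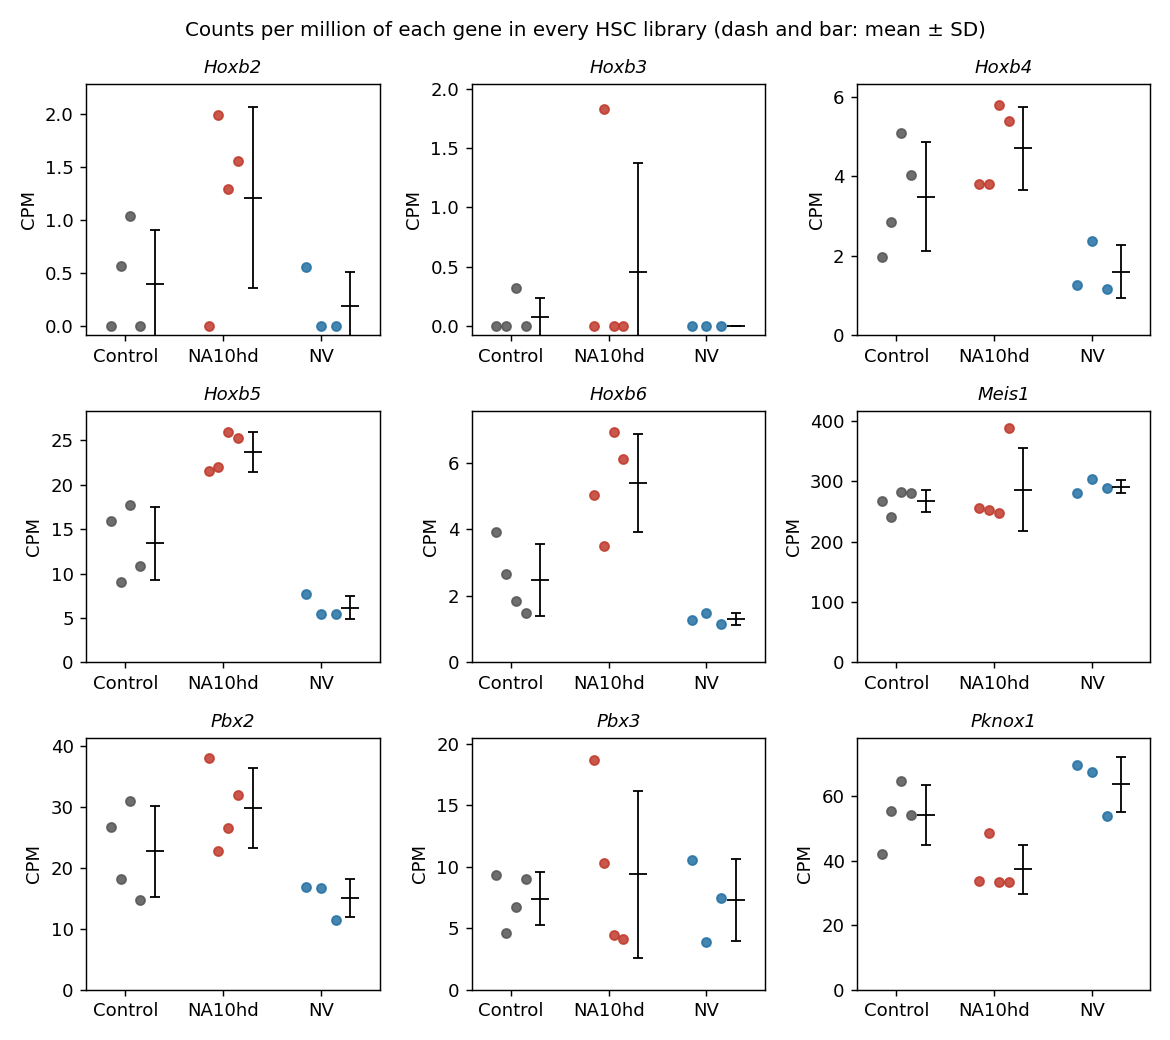
Level of each of the 9 genes in every library (y axis, CPM, a scale of its own in each panel; dots are libraries of Control, NA10hd and NV HSC on the x axis; the dash and bar are mean and SD, and bars that reach below 0 leave the panel). The 3 groups are apart for Hoxb5, the NV mean is the lowest for Hoxb4 and Hoxb6, and NA10hd replicate 4 stands alone for Meis1 at 388 CPM.

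Hoxb6, the neighbour of Hoxb5 on its 5′ side, was read at 3.93, 2.65, 1.83 and 1.48 CPM in Control, 5.04, 3.50, 6.91 and 6.10 CPM in NA10hd and 1.27, 1.49 and 1.16 CPM in NV libraries, from 11 to 80 reads each. All NA10hd libraries lay above all NV libraries, while NA10hd and Control overlapped, as did NV and Control. The fitted difference of NA10hd from NV was 2.02 on the log2 scale (SE 0.74, 95% interval 0.41 to 3.64, adjusted p = 0.147) and did not pass. It passed with DESeq2 (2.05, adjusted p = 0.0114) and when only genes with at least 10 counts in every library were fitted (2.02, adjusted p = 0.0237), the adjusted p over 14 alternatives reaching 0.415. Against Control, Hoxb6 differed by 1.13 in NA10hd (SE 0.62, adjusted p = 0.502) and by -0.91 in NV (SE 0.64, adjusted p = 0.497), intervals of -0.20 to 2.47 and -2.29 to 0.48.

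Hoxb4, on the other side of Hoxb5, was at 1.97, 2.84, 5.10 and 4.04 CPM in Control, 3.81, 3.82, 5.79 and 5.39 CPM in NA10hd and 1.27, 2.37 and 1.16 CPM in NV libraries, from 11 to 67 reads each. NA10hd and NV again did not overlap, and Control spanned the gap between them. No comparison passed for Hoxb4. The differences were 0.43 for NA10hd against Control (SE 0.59, 95% interval -0.85 to 1.70, adjusted p = 0.828), -1.12 for NV against Control (SE 0.59, 95% interval -2.42 to 0.17, adjusted p = 0.336) and 1.54 for NA10hd against NV (SE 0.75, 95% interval -0.11 to 3.18, adjusted p = 0.292). Both the low counts and the spread between libraries enter these intervals, and their parts were not tested.

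Hoxb2 and Hoxb3, the members nearest the 3′ end of the cluster, were close to the limit of detection. Hoxb2 had 0, 6, 13 and 0 reads in Control, 0, 25, 15 and 11 in NA10hd and 7, 0 and 0 in NV libraries. The fitted difference of NA10hd from Control was 1.47 (SE 1.25, 95% interval -1.23 to 4.18, adjusted p = 0.681), that of NA10hd from NV was 2.63 (SE 1.64, 95% interval -0.97 to 6.23, adjusted p = 0.424), and the gene was too low to be tested between NV and Control. Single libraries moved both values, the first to 2.44 without Control replicate 3. Without NV replicate 1 the second became 6.72, and in libraries alike in Xist and Y-linked reads the first became 6.35, but there the libraries compared against are all at 0 and the fitted values are no bounds. Hoxb3 had 4 reads in Control replicate 3, 23 in NA10hd replicate 2 and none elsewhere, so it did not pass the filter on low counts in any comparison and no fold is given. Without that filter it was not called, with edgeR adjusted p of 0.655 in NA10hd against Control, 0.495 in NV against Control and 0.309 in NA10hd against NV. Neither gene can be read apart from Hoxb3os, a transcript on the opposite strand whose exons cover 49.4% of the exon bases of Hoxb2 and 37.9% of those of Hoxb3, since the strand setting of the counting is not given in the sources used here.

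Hoxb3os itself was more abundant than either gene. It was at 15.2 ± 3.04 CPM in Control, 27.6 ± 4.17 CPM in NA10hd and 9.61 ± 2.12 CPM in NV HSC, from 95 to 328 reads per library, and its 3 groups did not overlap either. In NA10hd it was higher than in NV by 1.51 (SE 0.33, adjusted p = 0.026), a DEG. Its differences from Control were 0.87 in NA10hd (SE 0.28, adjusted p = 0.287, called by DESeq2) and -0.66 in NV (SE 0.29, adjusted p = 0.233). Of 9 non-coding gene IDs in the cluster, 3 were high enough to test and Hoxb3os was the only one called. Among the others, 0610040B09Rik, antisense to Hoxb5 and sharing 3.56% of its exon bases, averaged 1.501 CPM in Control, 4.56 CPM in NA10hd and 3.16 CPM in NV. It was not called, its NA10hd libraries did not overlap Control (1.58, adjusted p = 0.429), and it stood above Control in NV as well (1.03, adjusted p = 0.473), unlike Hoxb5 and Hoxb3os. The pseudogene Gm11539 differed from Control by -0.35 in NA10hd and by 0.00 in NV. The microRNA genes Mir10a and Mir196a-1 had no counts.

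Meis1, the cofactor with by far the most reads, varied little. It was read at 266.8, 240.4, 281.4 and 279.8 CPM in Control, 256.3, 252.2, 247.1 and 387.9 CPM in NA10hd and 280.9, 303.2 and 288.8 CPM in NV libraries, from 1493 to 4480 reads each. All groups overlapped, and NA10hd replicate 4 alone exceeded the rest. The fitted differences were 0.10 for NA10hd against Control (SE 0.17, 95% interval -0.26 to 0.47, adjusted p = 0.861), 0.12 for NV against Control (SE 0.10, 95% interval -0.11 to 0.35, adjusted p = 0.604) and -0.03 for NA10hd against NV (SE 0.18, 95% interval -0.44 to 0.37, adjusted p = 0.95). The first turned to -0.08 without NA10hd replicate 4, the library with Xist and no Y-linked counts. These intervals reach at most 0.47 from 0 on the log2 scale.

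Pbx2, a PBX partner of Hox proteins, was at 26.8, 18.3, 31.1 and 14.8 CPM in Control, 38.1, 22.8, 26.6 and 31.9 CPM in NA10hd and 17.0, 16.8 and 11.5 CPM in NV libraries. NA10hd lay above NV throughout, and Control overlapped both. The difference of NA10hd from NV was 0.97 (SE 0.32, 95% interval 0.28 to 1.67, adjusted p = 0.108) and passed with DESeq2 alone among 14 alternatives (0.99, adjusted p = 0.0195, range to 0.38). Against Control the differences were 0.39 in NA10hd (SE 0.30, adjusted p = 0.638) and -0.60 in NV (SE 0.29, adjusted p = 0.296). Part of the first exon bases of Pbx2, 6.24% of all of them, is shared with Gpsm3.

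Pbx3, its paralog, had group means closer together than its libraries, which were at 9.29, 4.64, 6.70 and 9.01 CPM in Control, 18.7, 10.3, 4.41 and 4.12 CPM in NA10hd and 10.5, 3.86 and 7.44 CPM in NV libraries. All groups overlapped. The differences were 0.34 (SE 0.55, adjusted p = 0.856), -0.03 (SE 0.42, adjusted p = 0.983) and 0.36 (SE 0.65, adjusted p = 0.833) for NA10hd against Control, NV against Control and NA10hd against NV, with intervals of -0.84 to 1.53, -0.94 to 0.89 and -1.06 to 1.77. Without NA10hd replicate 1 the first and last became -0.22 and -0.21.

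Pknox1, which shares PBX with Meis1, was the member with the opposite order of groups to Hoxb5. It was at 42.0, 55.4, 64.9 and 54.3 CPM in Control, 33.8, 48.8, 33.3 and 33.4 CPM in NA10hd and 69.7, 67.5 and 54.0 CPM in NV libraries. Every NV library was above every NA10hd library, and Control overlapped both. In NA10hd against NV it differed by -0.78 (SE 0.23, 95% interval -1.29 to -0.27, adjusted p = 0.0832), which missed the threshold. DESeq2 (-0.76, adjusted p = 0.0232), a fit of all 3 groups together (-0.77, adjusted p = 0.0363) and the fit without NA10hd replicate 2 (-0.92, adjusted p = 0.0473) called it, and the adjusted p over 14 alternatives reached 0.283. The differences from Control were -0.53 in NA10hd (SE 0.22, 95% interval -1.01 to -0.05, adjusted p = 0.371) and 0.23 in NV (SE 0.18, 95% interval -0.16 to 0.61, adjusted p = 0.551).

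**Figure D3:**
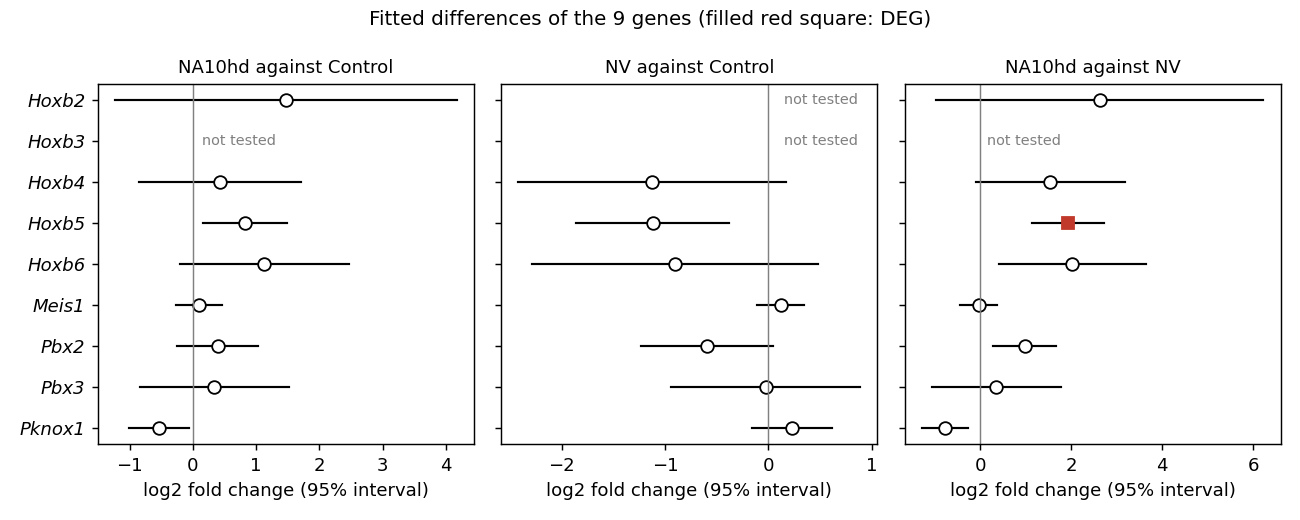
Fitted difference of each gene (x axis, log2 fold change with its 95% interval; y axis, the 9 genes) in NA10hd against Control, NV against Control and NA10hd against NV. The filled square is the 1 DEG, Hoxb5 in NA10hd against NV at 1.93, and genes too low to fit are marked as not tested.

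Counted together, the members read as follows. In NA10hd against Control, 0 of the 8 tested members were DEGs with edgeR, DESeq2 or limma-voom, in a comparison that called 0.00766% of 13060 genes (1 gene, lower) with edgeR, 1.25% with DESeq2 and 0.0153% with limma-voom, and 2 had an unadjusted p under 0.05 (Hoxb5 higher and Pknox1 lower), against 11.9% of all genes. Libraries of 1 of the 8 (Hoxb5) did not overlap, against 7.83% of all genes (3.89% higher, 3.94% lower). In NV against Control, 0 of 7 were DEGs (1 with DESeq2, 0 with limma-voom), where 4.76% of 13462 genes were (2.55% higher, 2.21% lower; 5.3% with DESeq2 and 4.81% with limma-voom), 1 had an unadjusted p under 0.05 (Hoxb5) where 19.5% of genes did, and 1 did not overlap (Hoxb5) where 18.9% of genes did not (9.49% higher, 9.37% lower). Of the 8 tested in NA10hd against NV, 1 was a DEG (4 with DESeq2, 1 with limma-voom), where 5.09% of 13461 genes were (2.3% higher, 2.79% lower; 7.8% with DESeq2 and 6.48% with limma-voom). The DESeq2 shares are of 18880 to 19146 genes, since no filter on low counts came before that test, and include genes to which it gave no adjusted p. In that comparison 4 had an unadjusted p under 0.05 (Hoxb5, Hoxb6 and Pbx2 higher, Pknox1 lower), where 19.5% of genes did. Libraries did not overlap for 5 of the 8 (Hoxb4, Hoxb5, Hoxb6 and Pbx2 higher in NA10hd, Pknox1 lower), where 21% of genes did not overlap (9.63% higher, 11.3% lower). The median difference of the tested members was 0.41, -0.60 and 1.26 on the log2 scale in the 3 comparisons, beside 0.02, -0.01 and 0.01 over all genes tested. The comparisons share libraries, so their values are not independent of each other.

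Of the 5 remaining Hoxb genes, Hoxb1, Hoxb8 and Hoxb13 were silent or nearly so, whereas Hoxb7 and Hoxb9 were not. In Control HSC, Hoxb9 averaged 1.14 RPKM, beside 0.840 RPKM for the member Hoxb4. Hoxb8 and Hoxb13 had no counts, Hoxb1 had 19 reads in Control replicate 3, 18 in NA10hd replicate 4 and none elsewhere, and 2 of the 5 were tested. Hoxb9 was called in both comparisons with NV. It had 86 reads over the Control libraries (2.94 ± 2.81 CPM), 189 over the NA10hd libraries (4.88 ± 1.97 CPM) and 1 over the NV libraries. The ratio of NV to Control was 0.0114 with a counting interval of 0.000286 to 0.0653 (edgeR adjusted p = 0.0135, not called by limma-voom). That of NA10hd to NV was 172 with a counting interval of 30.5 to 6821 (edgeR adjusted p = 0.0126). Both intervals are for summed reads and cover counting error only. They are too narrow, since they leave out the spread between libraries, which ran from 1.28 to 7.15 CPM in Control. Hoxb7, between Hoxb9 and Hoxb6, was at 1.61 ± 1.08 CPM in Control, 8.24 ± 9.34 CPM in NA10hd and 1.33 ± 0.732 CPM in NV HSC and was not called, with 2.36 (SE 1.02, adjusted p = 0.38) in NA10hd against Control.

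None of 8 further genes of the TALE class and its interactors was called by edgeR or limma-voom in any comparison, with 7 of them tested and Pknox2 at 0, while DESeq2 called Pbx4 higher and Meis2 lower in NV than in Control. Their median differences were 0.05 in NA10hd against Control, 0.01 in NV against Control and 0.21 in NA10hd against NV. In the same order, 1, 2 and 3 of them had an unadjusted p under 0.05. Pbxip1, which encodes a protein that binds PBX, was at 52.8 ± 12.7, 74.8 ± 8.64 and 53.3 ± 6.67 CPM, and the TALE repressor Tgif1 at 56.4 ± 10.2, 63.8 ± 5.78 and 63.4 ± 7.08 CPM in Control, NA10hd and NV.

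Set beside the Hoxa genes, which the same cofactors serve, Hoxb2 to Hoxb6 were a small part of the Hox transcripts of these cells. Their sum is a part of the HoxB cluster and leaves out Hoxb7 and Hoxb9. These averaged 0.395 and 1.14 RPKM in Control, 2.02 and 1.90 RPKM in NA10hd and 0.325 and 0.0125 RPKM in NV HSC. The RPKM of Hoxb2 to Hoxb6 summed to 5.37 to 8.83 for Control, to 11 to 14.3 for NA10hd and to 2.76 to 3.83 for NV libraries, and those of the Hoxa genes to 98.8 to 126, 191 to 218 and 91.6 to 98.2. Both sums were therefore higher in every NA10hd library than in any other, and lower in NV than in Control. The Hoxb sum was 4.51% to 6.98% of the Hoxa sum in Control and 5.03% to 7.51% in NA10hd libraries, which overlap, and 2.83% to 3.90% in NV libraries, below both. Reads of the fusion could have been counted on Hoxa10, which was not tested, and without Hoxa10 the Hoxa sums remained apart, at 89.5 to 115 for Control, 170 to 204 for NA10hd and 86.1 to 89.4 for NV libraries.

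**Figure D4:**
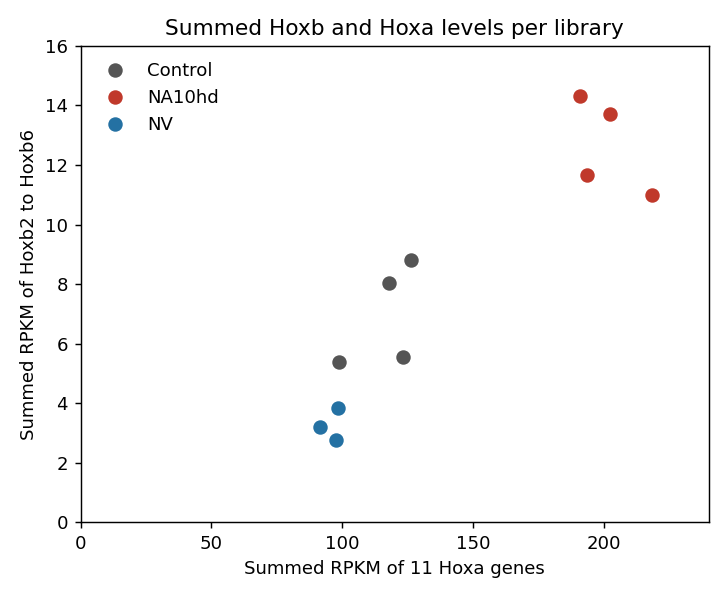
Summed RPKM of Hoxb2 to Hoxb6 (y axis) against the summed RPKM of the 11 Hoxa genes (x axis), a dot for each library. NA10hd libraries lie at 11 to 14.3 and 191 to 218, Control at 5.37 to 8.83 and 98.8 to 126, and NV at 2.76 to 3.83 and 91.6 to 98.2.

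Of 12 Hoxa gene IDs 8 were tested. In NA10hd against Control none was called by edgeR or limma-voom, DESeq2 called Hoxa7 and Hoxa9 higher and 5 reached an unadjusted p under 0.05, while all 8 differences were above 0 with a median of 0.89, and Hoxa9, the partner of MEIS1 in leukemia, stood at 0.89 (SE 0.14, adjusted p = 0.0633). In NV against Control Hoxa5 was called lower (-0.68, SE 0.18, adjusted p = 0.0468) and the median was -0.27. Against NV, NA10hd HSC had Hoxa5 (1.16, adjusted p = 0.0212), Hoxa7 (1.19, adjusted p = 0.0373) and Hoxa9 (0.999, adjusted p = 0.00413) called higher, the median was 1.08, and DESeq2 called 6 higher. Whether Hoxb5 differed by more than the Hoxa genes was not tested.

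Among 14 known regulators of Hox transcription, 11 were tested. None was called in NA10hd against Control by edgeR or limma-voom, where the median was 0.17, DESeq2 called Usf2 higher and 4 reached an unadjusted p under 0.05. Mllt3, which encodes the chromatin reader AF9 and is known for sustaining HSC, was at 349 ± 63.0 CPM in Control, 478 ± 53.1 CPM in NA10hd and 210 ± 5.57 CPM in NV HSC. It was called lower in NV than in Control (-0.74, SE 0.14, adjusted p = 0.0101) and higher in NA10hd than in NV (1.18, SE 0.15, adjusted p = 0.0018), and its groups did not overlap, in the same order as those of Hoxb5. Dot1l, the H3K79 methyltransferase that AF9 recruits, was called higher in NV than in Control (0.70, SE 0.16, adjusted p = 0.0271), at 63.1 ± 8.72 against 38.6 ± 3.10 CPM. The median of the regulators was 0.08 in NV against Control and -0.31 in NA10hd against NV. Kmt2a, the MLL methyltransferase that maintains Hox transcription, was at 144 ± 12.1, 168 ± 24.8 and 145 ± 1.42 CPM in Control, NA10hd and NV and was not called. Cdx1, Cdx2 and Cdx4, which control Hox genes in the embryo, were among the genes too low to test.

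Genes reported as targets of Hox and MEIS1 complexes were also read. All 8 were tested, and none was called by edgeR in any comparison, with 2, 2 and 3 at an unadjusted p under 0.05 and medians of -0.12, 0.22 and -0.13 in NA10hd against Control, NV against Control and NA10hd against NV. Hemgn, reported downstream of HOXB4, was at 49.3 ± 12.4 CPM in Control, 27.2 ± 11.8 CPM in NA10hd and 63.5 ± 5.69 CPM in NV HSC, with a difference of -1.22 in NA10hd against NV (SE 0.32, edgeR adjusted p = 0.0537) that DESeq2 and limma-voom both called. Myb, needed for definitive blood formation, was at 341 ± 13.9, 284 ± 39.6 and 406 ± 32.9 CPM, and differed by -0.52 in that comparison (SE 0.16, adjusted p = 0.0884). Hif1a, reported as a target of MEIS1 in HSC, was at 69.7 ± 13.2, 50.9 ± 8.69 and 45.9 ± 4.75 CPM and differed by -0.61 between NV and Control (SE 0.18, adjusted p = 0.0798), called by DESeq2. Flt3 encodes CD135, which the sort selected against, and its group means were 7.21 to 13.9 CPM.

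The profiles of the members over the 11 libraries were compared as the root mean square (RMS) difference of their centred log2(CPM + 1) values, a description over libraries that share groups and depth. Among member pairs the Hoxb5 profile was nearest to Hoxb6, with an RMS difference of 0.39, and then to Pbx2 with 0.42, and farthest from Pknox1 with 1.07. Over all genes of like spread, the profiles nearest to Hoxb5 were those of Pdzk1ip1 (0.22), Gimap5 (0.27) and Agpat4 (0.28), where the median of 4105 genes was 1.11. Nearest to Hoxb4 were Ndufa11 (0.25), Gm13826 (0.26) and Rnf208 (0.27) with a median of 0.88 over 6883 genes, and nearest to Meis1 were Nt5c2 (0.10), Cpsf1 (0.10) and Gabpb1 (0.11) with a median of 0.48 over 13877 genes.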

How the data were processed

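RNA-Seq of 11 HSC libraries was analysed: 4 Control, 4 NA10hd and 3 NV, grouped by the genotype in their labels. The authors sorted 1000-cell aliquots, amplified their cDNA for Nextera XT, sequenced on a NextSeq500 and aligned reads to NCBIM37 with HISAT2. They counted reads per gene with featureCounts, and the deposited values are raw counts for 37991 Ensembl genes without normalization. Tool versions, the annotation release, the strand setting and the handling of reads with several matches are not given in the sources used here. GENCODE vM1, of the same build, gave symbols for 37205 of the IDs, and 786 had none. Reads from amplified cDNA without molecular identifiers are not independent molecules.

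Each comparison was fitted on its own libraries with edgeR 4.0.16 in R 4.3.3 (TMM, default filter on low counts, quasi-likelihood test), with p adjusted over all genes tested by Benjamini-Hochberg. A DEG had adjusted p under 0.05 and a fold above 1.5. SE were the log2 difference over the root of the F statistic, and intervals are 95%. CPM used the total times the TMM factor over the 11 libraries, and RPKM the union of exons. Libraries of a group differed by more than counting noise, with 6.65 or more as chi-square over degrees of freedom, so none was merged in the fits. Reads were summed over the libraries of a group only for the limits at a count of 0 and for the counting intervals. The members and lists were chosen with earlier results of these data known. Lists were other Hoxb genes, other TALE genes, Hoxa genes, Hox regulators, reported targets, non-coding genes of the cluster, and markers of HSC, multipotent progenitors, myeloid, lymphoid, erythroid, megakaryocyte, endothelial and stromal cells. All members were named, and from each list the genes called or else at most 3 with the highest CPM. For Hoxb4, Hoxb5 and Meis1, the 3 genes with the nearest profile were named, among genes whose SD was at least 0.8 times the member's. Alternatives were DESeq2 1.42.0 (the authors' tool), limma-voom 3.58.1, DESeq2's size factors, no filter, a replicate block, a joint fit of the 3 groups, a minimum of 10 counts in every library, no fold threshold, each library left out, libraries alike in Xist and Y-linked reads, and the longest transcript as gene length. Some genes and sequences of these lists are not reported here. Recognition helices were found by their coding pattern in GENCODE transcripts and read from the NCBIM37 genome. Figures were drawn with matplotlib 3.10.9.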

Additional observations from a re-analysis of the deposited data

Results flagged for a closer look

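The Hoxb5 difference between NA10hd and NV, 1.93 on the log2 scale (adjusted p = 0.012), is also the difference between the responses of these genotypes against the shared Control, and the NA10hd libraries lay above and the NV libraries below every Control library.

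Within the groups of 4 libraries, 4 values from 3 libraries stood far from the others of their group by Dixon's criterion, which chance meets in about 1 of 20 groups. Meis1 was at 388 CPM in NA10hd replicate 4, where the others were at 247, 252 and 256 CPM. Pknox1 was at 48.8 CPM in NA10hd replicate 2, where the others were at 33.3, 33.4 and 33.8 CPM. Hoxb3 was at 1.83 CPM in NA10hd replicate 2 and at 0.319 CPM in Control replicate 3, and at 0 in the other libraries of these groups, where any single value above 0 meets the criterion and the chance rate does not apply. The NV group, with 3 libraries, is not part of this count. There too, single libraries stood apart: Hoxb5 was at 7.72 CPM in NV replicate 1 and at 5.41 CPM in replicates 2 and 3. Hoxb2 was at 0.557 CPM in NV replicate 1 and at 0 in the others.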

How the results depend on the processing

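Of the member differences recomputed under each alternative, 316 kept their direction and side of the threshold, 7 passed that had not, 2 no longer passed (Hoxb5 in NA10hd against NV without NV replicate 2 or 3) and 12 changed sign, all of Meis1 or Pbx3. The cause of these changes was not tested. In NA10hd against Control, Meis1 became -0.12 in libraries alike in Xist and Y-linked reads, and with a library left out Meis1 ranged from -0.078 (without NA10hd replicate 4) to 0.16 and Pbx3 from -0.22 (without NA10hd replicate 1) to 0.59. In NV against Control, Pbx3 became 0.020 with the replicate block and 0.35 in libraries alike in Xist and Y-linked reads, and ranged from -0.40 to 0.28 with a library left out, above 0 without NV replicate 2 or Control replicate 1 or 4. In NA10hd against NV, Meis1 ranged from -0.21 to 0.035 with a library left out, above 0 without NA10hd replicate 1, 2 or 3, and Pbx3 from -0.21 (without NA10hd replicate 1) to 0.72.

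Members called in NV against Control numbered 0, and 1 with DESeq2. In NA10hd against NV they numbered 1, but 4 with DESeq2, 2 with at least 10 counts in every library, 2 with all 3 groups in one fit and 0 to 2 with a library left out (0 without NV replicate 2 or 3, 2 without NA10hd replicate 2). Genes called in NA10hd against Control numbered 1, but 238 with DESeq2, 2 with limma-voom, 8 without a filter, 8 with at least 10 counts in every library, 39 with all 3 groups in one fit, 0 with the replicate block, 0 in libraries alike in Xist and Y-linked reads, and 0 to 5 with a library left out. In NV against Control 641 were called, 1015 with DESeq2, 155 with all 3 groups in one fit, 301 in libraries alike in Xist and Y-linked reads and 263 to 643 with a library left out (263 and 269 without NV replicates 3 and 2). In NA10hd against NV 685 were called (309 higher, 376 lower), 1472 with DESeq2 (835 higher, 637 lower), 1152 with all 3 groups in one fit and 146 to 771 with a library left out, the lowest without an NV library. Replicate numbers did not pair the libraries: deviations of same-numbered libraries correlated at -0.109 to 0.034, and in 5 of 20 cases (a library in a comparison) a library correlated best with its own number. With the replicate block, 442 genes were called in NV against Control and 588 in NA10hd against NV, Hoxb5 remaining the 1 member called (1.92, adjusted p = 0.0319). With the longest transcript, Meis1 was at 77.9, 83.4 and 84.9 RPKM and Pbx3 at 2.59, 3.28 and 2.54 RPKM in Control, NA10hd and NV.

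Hoxb2, Hoxb3, Hoxb4 and Hoxb6 had at most 80 reads in any library, and the parts of depth and of the spread between libraries in their intervals were not tested. NA10hd against NV has no fit on libraries alike in Xist and Y-linked reads, since these reads separate the groups, and the Hoxb5 call there has no such check.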

Other observations

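The other Hox clusters were nearly silent, a count made after the values were seen. All 9 Hoxd genes had no counts in any library, and 5 of 9 Hoxc genes had none. The highest Hoxc count was 18 reads of Hoxc6, which averaged 0.676 ± 0.584 CPM in Control (n = 4), 1.04 ± 0.811 CPM in NA10hd (n = 4) and 0.0531 ± 0.0919 CPM in NV HSC (n = 3).

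Markers of other cells were low or changed as follows. Multipotent progenitor markers summed to 107 to 148 CPM in Control, 118 to 172 CPM in NA10hd and 127 to 155 CPM in NV libraries, with Dntt at 0 and none called. Myeloid markers summed to 439 to 554, 373 to 529 and 492 to 527 CPM, and lymphoid markers to 592 to 662, 548 to 1446 and 574 to 611 CPM with Cd3e at 0, none of either list being called. Nearly all of the myeloid sum was Lyz2, at 493, 468 and 507 CPM in Control, NA10hd and NV, and nearly all of the lymphoid sum was Ptprcap, at 631, 906 and 588 CPM, while the mean of each other gene of both lists was at most 1.55 CPM in any group. Erythroid markers summed to 2.87 to 7.96, 0 to 3.28 and 10.7 to 24.0 CPM, and Klf1, an erythroid transcription factor, was called higher in NV than in both other groups. Megakaryocyte markers summed to 289 to 321, 224 to 372 and 266 to 571 CPM, and in NV against Control Pf4 (158 ± 81.0 against 20.7 ± 5.58 CPM), Itga2b (145 ± 50.6 against 58.4 ± 10.7 CPM) and Ppbp (10.4 ± 0.938 against 3.05 ± 1.43 CPM) were called higher and Vwf lower (124 ± 27.3 against 220 ± 14.7 CPM). Stromal markers summed to 6.30 to 12.4, 4.41 to 26.1 and 3.86 to 6.84 CPM with none called. In NV against Control, the HSC marker Ly6a was called higher (481 ± 97.3 against 296 ± 31.5 CPM) and Procr lower (79.8 ± 10.7 against 131 ± 6.82 CPM), and the endothelial marker Emcn was called lower (34.9 ± 11.3 against 94.9 ± 16.2 CPM).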
